A study of Homo sapiens with 3 samples.

Results

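The 42 genes described here belong to the response that the transcription factor ATF4 runs in cells short of amino acids or under stress, together with serine synthesis and the tRNA synthetases. They were taken by name, with no measured value in the rule, but the list was chosen with earlier results of these data known. Of the 42, 40 had at least 1 probe set of their own on the array, 77 probe sets among 54675 in all. GPT2 and MARS1 had none. All 40 passed the filter on low values, as did 74 of their 77 probe sets.

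SupB15-MR cells were measured on 2 arrays labelled as biological replicates, the second of which is also described as SupB15-MR5. The study speaks of 2 SupB15-MR clones, called MR1 and MR5 in its supplementary legends and MR1 and MR2 in a main one. The label names a clone for the second array alone. They were set against SupB15 cells, measured on 1 array. SupB15 is an established line of B-cell precursor acute lymphoblastic leukemia. SupB15-MR cells are what survived when SupB15 cells, kept in medium conditioned by the bone marrow stromal line HS-5, were exposed to mitoxantrone, a topoisomerase II poison, and were afterwards grown without the drug. The methods give the same medium with fetal bovine serum for both lines, and SupB15 cells in conditioned medium were not analysed here. SupB15-MR cells were thus selected from 1 line, and nothing was measured of how far separate SupB15 cultures differ.

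In cells short of an amino acid, or with unfolded protein in the endoplasmic reticulum, kinases phosphorylate the initiation factor eIF2α. General translation then falls while that of the ATF4 mRNA increases. ATF4 binds, as a dimer with a C/EBP protein, to short elements near genes for amino acid synthesis, amino acid transport and tRNA charging, and to genes such as DDIT3 and TRIB3 that act later in the response. Leukemic lymphoblasts are known for making little asparagine, the basis of asparaginase treatment, and asparagine synthetase is a classic ATF4 target.

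The values are log2 expression values made with RMA, so a difference of 1 is 2-fold. Between the SupB15-MR arrays the values correlated at 0.995 over all probe sets, and 23368 probe sets (42.7%) carried the same value in both. Whether these arrays hold RNA of separate cultures was not settled from the files, and if they do not, the SE and p below measure technical spread only. SupB15-MR replicates 1 and 2 correlated with SupB15 at 0.841 each. The array medians were 5.27 and 5.28 in SupB15-MR and 5.08 in SupB15. Hybridization spikes were 2.66 higher, poly(A) spikes 2.20 higher and 18S rRNA probe sets 7.46 higher in SupB15-MR, and the ACTB 3' probe set exceeded the 5' probe set by 2.59 and 2.43 in SupB15-MR, against 0.80 in SupB15. The same measure for GAPDH was -0.09 and -0.11 in SupB15-MR and 0.10 in SupB15. The part of these differences between arrays in the results below was not tested. Among 10 tested markers of B-cell precursors, levels ran between 3.46 and 13.4 in SupB15-MR and between 9.08 and 13.2 in SupB15. VPREB1 and CD34 lay below 5 in SupB15-MR and above 10 in SupB15. On the probe set with the highest mean, DNTT and CD79A differed by less than 2-fold. Another DNTT probe set had a log2 difference of 4.56, and another CD79A probe set one of -1.02. Of the same markers MME rose by 1.54 on the log2 scale (limma adjusted p = 0.0409), RAG1 differed by 2.03 and EBF1 by -1.50. The 9 tested markers of stromal cells had median levels of 5.153 and 5.002 in SupB15-MR and 5.130 in SupB15, with THY1 at 5.15 and 4.69 in SupB15-MR and 8.14 in SupB15, NT5E called lower at -1.74 and COL5A1 different by 2.05. The 8 T-cell and myeloid markers had median levels of 4.28 and 3.92 in SupB15-MR and 4.60 in SupB15. Among them MPO had 8.20 and 7.30 in SupB15-MR and 6.18 in SupB15, on the brighter of 2 probe sets. CD3E was called lower at -2.28, and CSF1R differed by -2.29. In RNA from whole cultures, fewer cells of a type and less RNA per cell cannot be told apart.

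The DNA element that ATF4 and C/EBP proteins share is spelled TGATGNAA, or TTNCATCA when read on the other strand. It was searched on both strands in RefSeq promoters (GRCh38.p14), from 250 bases before to 50 after each start site. Of 34 members with a promoter in the table, 13 (38.2%) held it, against 4.46% of 27305 genes and 3.62% of 35116 promoters of the same length. Among the synthetases it was present in 7 of 10. The members were listed as genes of the ATF4 response, so a share above that of all genes may follow from how the list was made. It is not a result of these arrays. The windows shown are those of the members that were called, or at least 2-fold apart from SupB15 in both SupB15-MR arrays, and held the element, and that of ASNS, added after its values were seen because its element is the best known. Each is 30 bases in the direction of the gene with the element in capitals.
CHAC1: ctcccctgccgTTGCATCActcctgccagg
CEBPG: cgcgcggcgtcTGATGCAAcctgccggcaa
NARS1: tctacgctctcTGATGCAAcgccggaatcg
TARS1: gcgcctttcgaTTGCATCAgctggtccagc
ASNS: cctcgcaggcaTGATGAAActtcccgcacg
The CHAC1 window is chr15:40953251-40953280 on the plus strand, with the first base of the element at -209 from the start site. That of CEBPG is chr19:33374060-33374089 on the plus strand, with the element at -42. In NARS1 (chr18:57621804-57621833, minus strand) and TARS1 (chr5:33440956-33440985, plus strand) the element begins 15 and 3 bases into the transcript. The ASNS window is chr7:97872458-97872487 on the minus strand, with the element at -68. Of 12 tested members with the element, 3 were 2-fold or more below SupB15 in each SupB15-MR array and 1 as far above it. Their median log2 difference was -0.59. Of 21 tested members with a promoter and no match, 13 were lower and 1 higher (median -1.37). No match means none from 250 bases before to 50 after the start site, so an element elsewhere would be missed. The difference between these groups was not tested. A match is a description of the sequence, not a binding site.

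Across the pathway, most members were lower in SupB15-MR than in SupB15, and a few enzymes and 2 of the transcription factors and regulators were higher. Values 2-fold or more below SupB15 in each SupB15-MR array were found for 18 of 40 members (against 13.9% of all 17512 genes tested), and values 2-fold or more above it for 3, against 16.2% of all genes. The limma fit, with its p adjusted over all probe sets tested, called 6 members lower and 2 higher, against 9.05% of all genes called lower and 11.8% called higher. The falls were those of EIF2AK4, ATF4, CHAC1, STC2, PYCR1 and CBS, and the rises those of SHMT1 and SHMT2. The median log2 difference of the members was -1.04, against 0 over all genes, and 30 members lay below SupB15, 8 above and 2 at the same value.

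The gap between 18 and 6 turns on how much spread the test expects. Because so many probe sets had the same value in both SupB15-MR arrays, limma took a prior SD of 0.00102, and each member's own SupB15-MR spread then weighed heavily in its test. With the prior taken from the probe sets that differed (0.169), the calls were 21 lower and 5 higher, against 15% and 17.6% of all genes. A 1-way ANOVA of the same arrays called 0 members after adjustment, and gave 4 lower and 2 higher at an unadjusted p of at most 0.05 with 2-fold. A test that only rearranges the 3 arrays cannot give a p under 0.333.

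Of the 40 members, 31 had a SupB15 value of at least 8. Among genes at that level, a split chosen after the data were seen, 16 of the 31 members were 2-fold or more below SupB15 in each SupB15-MR array and 2 as far above it, against 28% and 9.08% of the 4582 genes at that level. Their median difference was -1.13, against -0.35 for all genes at that level. Of the 9 members below that level, 2 were lower and 1 higher.

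**Figure D1:**
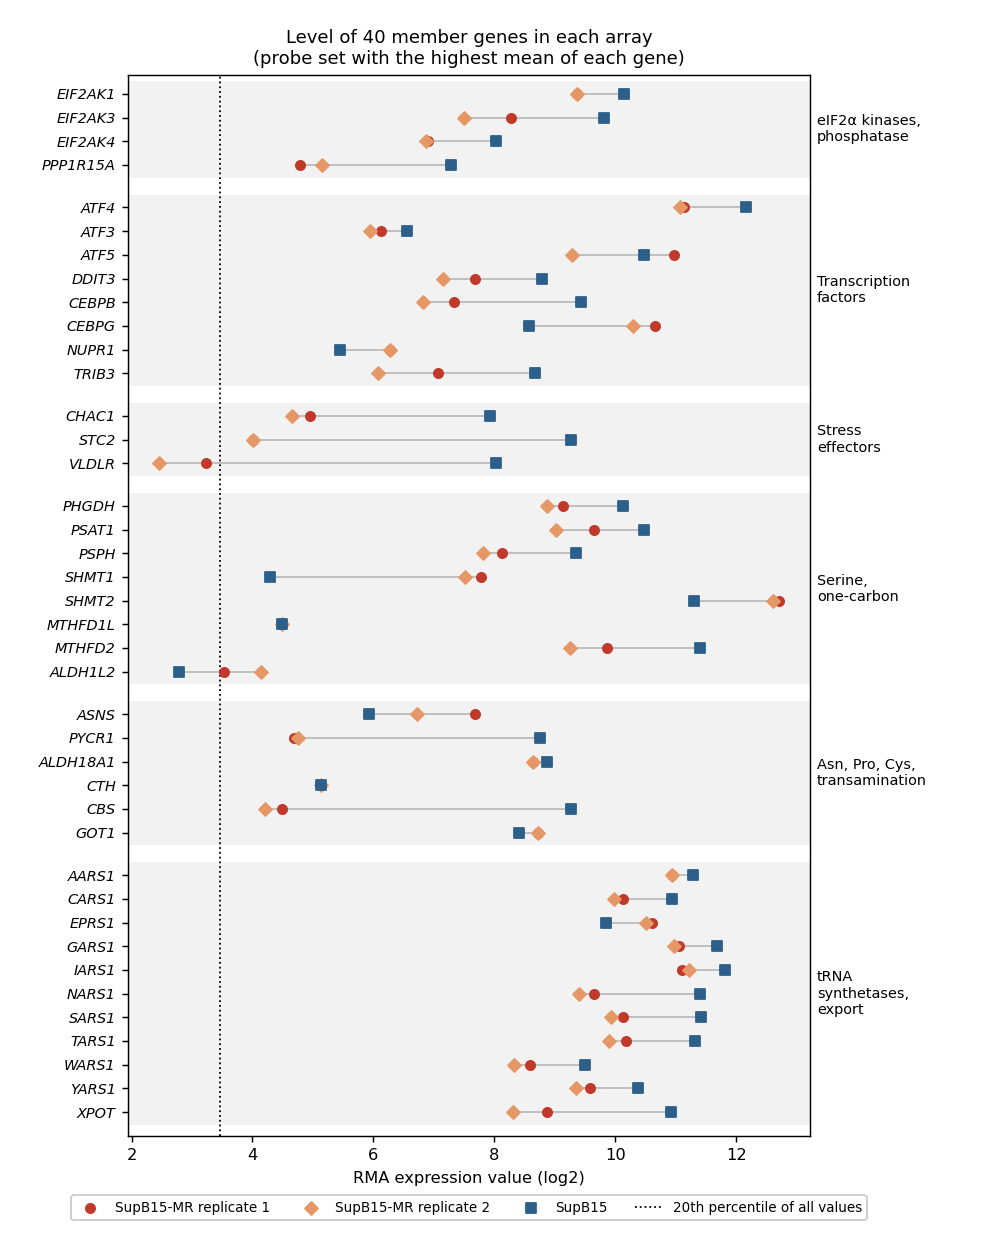
RMA expression values (log2, horizontal axis) of the 40 measured members in SupB15-MR replicate 1 (circles), SupB15-MR replicate 2 (diamonds) and SupB15 (squares), grouped by role. The SupB15 square lies right of both SupB15-MR points for most members, 18 of them by at least 2-fold in both arrays, and left of both by that margin for CEBPG, SHMT1 and SHMT2. Where both SupB15-MR values are the same, the diamond covers the circle.

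Among the kinases that phosphorylate eIF2α and the phosphatase subunit that reverses it, 1 of 4 was called lower and 3 of 4 were at least 2-fold lower in both arrays. Over all genes these shares were 9.05% and 13.9%. EIF2AK4, the kinase GCN2 that senses uncharged tRNA, had 6.90 and 6.86 in SupB15-MR and 8.03 in SupB15. It fell by 1.15 on the log2 scale (SE 0.03, limma adjusted p = 0.0135), on the probe set with the higher level. Its other probe set read 3.68 in all 3 arrays, near the low-value limit of 3.47, the 20th percentile over the 3 arrays. EIF2AK3, the kinase PERK that senses unfolded protein, had 8.27 and 7.49 in SupB15-MR and 9.82 in SupB15 (limma adjusted p = 0.189). PPP1R15A, which brings a phosphatase to eIF2α, had 4.78 and 5.15 in SupB15-MR and 7.29 in SupB15 (adjusted p = 0.0728), and its second probe set was lower by 0.51 on average. Both SupB15-MR arrays lay below SupB15 for each of these, but the SupB15-MR arrays of EIF2AK3 were themselves 0.78 apart, and its second probe set ran the other way with 4.49 and 4.38 in SupB15-MR and 4.06 in SupB15. EIF2AK1, the heme-regulated kinase, differed by less than 2-fold.

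Of the transcription factors and regulators, ATF4 itself fell, 4 of 8 were at least 2-fold lower in both arrays and 1 was at least 2-fold higher. Over all genes these 2-fold shares were 13.9% and 16.2%. ATF4 had 11.14 and 11.07 in SupB15-MR and 12.15 in SupB15, a log2 difference of -1.04 (SE 0.05, limma adjusted p = 0.028), on its only probe set. At 2.06-fold, ATF4 lay just past the 2-fold limit. Arrays measure mRNA, while ATF4 is known to be controlled largely through translation.

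The factors that act with ATF4 or after it were not alike. DDIT3, which encodes CHOP, had 7.67 and 7.15 in SupB15-MR and 8.79 in SupB15. CEBPB, a C/EBP protein that can pair with ATF4, had 7.34 and 6.82 in SupB15-MR and 9.43 in SupB15. TRIB3, a pseudokinase that is both a target and an inhibitor of ATF4, had 7.07 and 6.07 in SupB15-MR and 8.67 in SupB15. All 3 were lower in both SupB15-MR arrays, with log2 differences between -2.60 and -1.12, but the SupB15-MR arrays lay 0.52, 0.51 and 1.00 apart, and limma called none of them (adjusted p = 0.176, 0.101 and 0.223). The second TRIB3 probe set, with 5.31 and 5.50 in SupB15-MR and 7.55 in SupB15, was called lower (limma adjusted p = 0.0425). CEBPG, a C/EBP partner of ATF4, ran the other way with 10.66 and 10.29 in SupB15-MR and 8.56 in SupB15 (log2 difference 1.91, adjusted p = 0.088). Its second probe set had 8.26 and 8.07 in SupB15-MR and 8.12 in SupB15, so the higher level rested on 1 of 2 probe sets. ATF3, ATF5 and NUPR1 differed by under 2-fold on the probe set that stands for the gene, with differences from -0.52 to 0.81. The ATF5 probe sets disagreed, a point singled out after the values were seen. The brightest had 10.96 and 9.29 in SupB15-MR and 10.47 in SupB15, while another had 9.70 and 8.56 in SupB15-MR and 5.29 in SupB15.

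Of the stress effectors 2 were called lower, and all 3 were at least 2-fold lower in both arrays, against 9.05% and 13.9% of all genes. STC2, which encodes the secreted glycoprotein stanniocalcin, had 4.01 in both SupB15-MR arrays and 9.26 in SupB15, a log2 difference of -5.25 (limma adjusted p = 0.000645). Because its SupB15-MR values were identical, that p rests on the prior alone, and 4.01 lies under the 40th percentile of all values (4.66), so the size of the fall is uncertain. Its second probe set, with 4.83 and 4.38 in SupB15-MR and 6.44 in SupB15, was lower as well. CHAC1, an enzyme that degrades glutathione, had 4.96 and 4.65 in SupB15-MR and 7.92 in SupB15. It fell 8.69-fold (log2 difference -3.12, SE 0.23, limma adjusted p = 0.0459), and with no filter on low values the adjusted p was 0.0513. The CHAC1 value of SupB15-MR replicate 2 lay just under the 40th percentile, so the size of this fall is uncertain too. VLDLR, a lipoprotein receptor, had 3.23 and 2.46 in SupB15-MR and 8.02 in SupB15 (adjusted p = 0.0688). Both SupB15-MR values lay under the low-value limit of 3.47, whereas the SupB15 value lay well above it.

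The serine and one-carbon enzymes moved in both directions. The synthesis of serine takes 3 enzymes, and all 3 were lower in both SupB15-MR arrays without being called. PHGDH, the enzyme of the entry step, had 9.14 and 8.86 in SupB15-MR and 10.12 in SupB15 (log2 difference -1.12, limma adjusted p = 0.112). PSAT1, the aminotransferase that follows, had 9.65 and 9.02 in SupB15-MR and 10.47 in SupB15 (log2 difference -1.13, adjusted p = 0.265). PSPH, the phosphatase of the last step, had 8.12 and 7.81 in SupB15-MR and 9.35 in SupB15 (log2 difference -1.38, adjusted p = 0.104). Of the 3, PSPH alone was at least 2-fold lower in both arrays, since replicate 1 of SupB15-MR differed from SupB15 by -0.99 for PHGDH and by -0.81 for PSAT1. The other PSAT1 probe set showed a wider gap, with 7.96 and 7.10 in SupB15-MR and 11.21 in SupB15. The other PSPH probe sets differed by less than 2-fold. A probe set annotated to PHGDH together with MZT2A and MZT2B had a log2 difference of -2.11.

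The enzymes that turn serine into glycine and pass its carbon to folate rose on the probe set that stands for each gene. SHMT1, the cytosolic serine hydroxymethyltransferase, had 7.77 and 7.52 in SupB15-MR and 4.30 in SupB15, a 10.2-fold rise (log2 difference 3.35, SE 0.19, limma adjusted p = 0.0357). SHMT2, the mitochondrial form, had 12.71 and 12.61 in SupB15-MR and 11.30 in SupB15 (log2 difference 1.36, SE 0.07, adjusted p = 0.033). Other probe sets of these genes differed from this. The second SHMT1 probe set read 4.04 in all 3 arrays. Of 2 probe sets annotated to SHMT1 together with the microRNA gene MIR6778, one had 4.66 and 5.14 in SupB15-MR and 8.03 in SupB15, and the brighter had 9.14 and 9.13 in SupB15-MR and 8.90 in SupB15. The next SHMT2 probe set had 9.51 and 9.47 in SupB15-MR and 10.70 in SupB15 and was called lower (limma adjusted p = 0.0135), while the dimmest had 9.39 and 9.30 in SupB15-MR and 8.68 in SupB15, so the size and direction of the difference depended on the probe set.

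The mitochondrial folate enzymes downstream were also divided. MTHFD2, a mitochondrial enzyme of folate-bound carbon, had 9.87 and 9.25 in SupB15-MR and 11.40 in SupB15 (log2 difference -1.85, limma adjusted p = 0.156). Its second probe set had 10.36 and 9.88 in SupB15-MR and 8.95 in SupB15. MTHFD1L read 4.49 in all 3 arrays on its own brightest probe set. A probe set shared with 2 uncharacterised genes had 8.16 and 7.94 in SupB15-MR and 9.82 in SupB15, and another shared with the same genes differed by -0.36. ALDH1L2 was near background, at 3.53 and 4.14 in SupB15-MR and 2.78 in SupB15. Over the 8 genes of the group, 2 were called higher and none lower, against 11.8% and 9.05% of all genes. In both arrays 2 were at least 2-fold lower and 2 at least 2-fold higher, against 13.9% and 16.2% of all genes. The median difference was -0.56.

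ASNS, which encodes asparagine synthetase, was higher in both SupB15-MR arrays, unlike most of the pathway. It had 7.68 and 6.71 in SupB15-MR and 5.92 in SupB15. The log2 difference of 1.28 (SE 0.73) was not called (limma adjusted p = 0.357), since replicate 1 was 1.76 and replicate 2 was 0.79 above SupB15. The gene's second probe set stayed under the low-value limit in all 3 arrays.

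Among the other amino acid enzymes, PYCR1 and CBS fell to low levels. PYCR1, which makes proline in mitochondria, had 4.69 and 4.76 in SupB15-MR and 8.75 in SupB15, and fell 16.3-fold (log2 difference -4.02, SE 0.05, limma adjusted p = 0.00641) on its only probe set. Both SupB15-MR values of PYCR1 lay just above the 40th percentile of all values (4.66), so the size of its fall is uncertain. CBS, which makes cystathionine from homocysteine, had 4.49 and 4.20 in SupB15-MR and 9.26 in SupB15, a fall with a log2 difference of -4.92 (SE 0.22, adjusted p = 0.027) whose size is uncertain because both SupB15-MR values lie under the 40th percentile of all values. Of its other probe sets, one had 4.79 and 3.91 in SupB15-MR and 8.20 in SupB15, and the dimmest differed by 0.30. CTH, the next enzyme after CBS, read 5.13 in all 3 arrays. ALDH18A1, the step before PYCR1, and the transaminase GOT1 differed by less than 2-fold on the probe set that stands for the gene, although the other ALDH18A1 probe set, with 7.64 and 7.48 in SupB15-MR and 9.24 in SupB15, was called lower (limma adjusted p = 0.0441).

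None of the 10 measured tRNA synthetases was called, but 9 lay below SupB15 and 1 above, and the median difference was -0.90. With each array centred on its median 6 of them were called lower, against 16% of all genes. With the prior from differing probe sets 4 were, against 15% of all genes. Both shares cover genes of all levels. The shares of such calls among genes with a SupB15 value of at least 8 are not given here. NARS1, the synthetase for asparagine, had 9.64 and 9.40 in SupB15-MR and 11.39 in SupB15 (limma adjusted p = 0.0599). SARS1, for serine, had 10.13 and 9.93 in SupB15-MR and 11.41 in SupB15 (adjusted p = 0.0659). TARS1, for threonine, had 10.17 and 9.89 in SupB15-MR and 11.32 in SupB15 (adjusted p = 0.0999). These 3 of 10 were at least 2-fold lower in both arrays, near the 28% of all genes with a SupB15 value of at least 8. The 10 synthetases had SupB15 values between 9.50 and 11.8. For NARS1, SARS1 and TARS1 the log2 differences were -1.87, -1.38 and -1.29. The dimmer TARS1 probe set ran the other way, with 6.27 and 6.07 in SupB15-MR and 4.61 in SupB15. XPOT, which exports tRNA from the nucleus, had 8.88 and 8.31 in SupB15-MR and 10.91 in SupB15 (log2 difference -2.32, limma adjusted p = 0.112), and its other probe set was lower by 1.06 on average. AARS1, CARS1, GARS1, IARS1, WARS1 and YARS1 had log2 differences between -1.04 and -0.36. EPRS1, the synthetase for glutamate and proline, was the one that lay higher, by 0.72. MARS1 was covered only by 3 probe sets annotated together with the microRNA gene MIR6758, with log2 differences of 0.04, 0.41 and -0.91. For WARS1 and YARS1, noted after the values were seen, the second probe set was called lower. That of WARS1 had 7.82 and 7.70 in SupB15-MR and 10.39 in SupB15 (limma adjusted p = 0.0194), and that of YARS1 had 7.29 in both SupB15-MR arrays and 8.999 in SupB15. A CARS1 probe set was called higher, with 9.95 and 9.97 in SupB15-MR and 8.38 in SupB15 (limma adjusted p = 0.00395).

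Several probe sets of a gene do not always measure the same transcripts, and the members were uneven in this. Over all 77 probe sets of the members, 27 lay 2-fold or more below SupB15 in each SupB15-MR array and 7 as far above it, against 12.7% and 15.7% of the 41097 probe sets with 1 gene, and the median difference was -0.52. Of 27 members with several probe sets, 14 had none above SupB15 and 8 had probe sets on both sides of it. In 3 members (SHMT2, CARS1 and TARS1) probe sets were at least 2-fold apart from SupB15 in opposite directions. With the mean of all probe sets of a gene, the calls of EIF2AK4 (-0.58), SHMT2 (0.27) and CBS (-3.02, limma adjusted p = 0.0535) were lost, while WARS1 (-1.84) and YARS1 (-1.31) were then called lower. The probe set that stands for a gene was the one with the highest mean over the 3 arrays, 2 of which are SupB15-MR, so the choice leaned towards probe sets high in SupB15-MR.

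**Figure D2:**
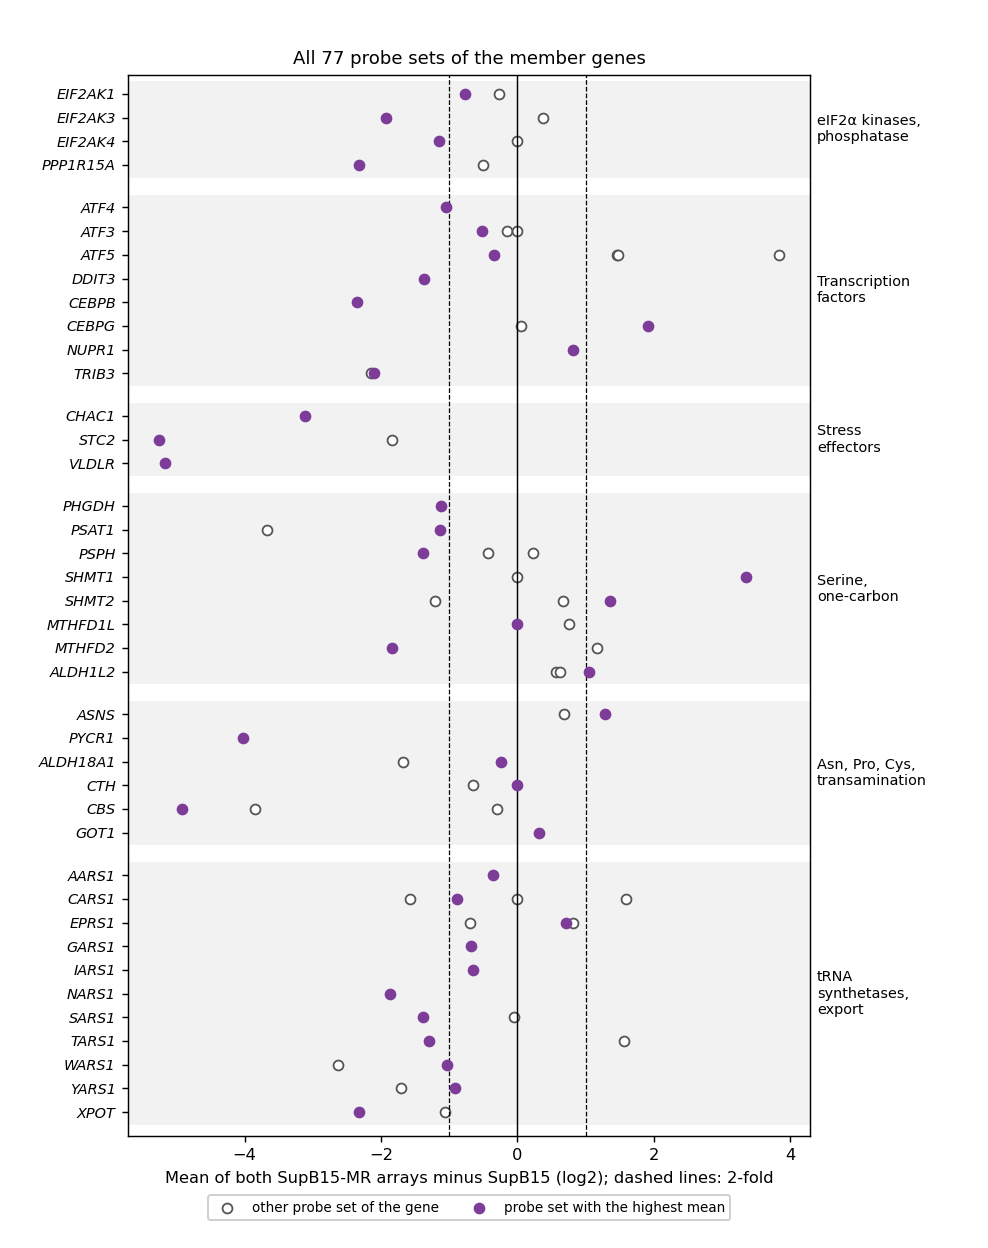
Log2 difference (mean of both SupB15-MR arrays minus SupB15, horizontal axis) of all 77 probe sets of the members, with the probe set of highest mean filled and the others open. Dashed lines mark 2-fold. STC2, TRIB3, PSAT1, CBS, WARS1 and XPOT have more than 1 probe set on the lower side past or near 2-fold, while SHMT2, CARS1, TARS1, ATF5 and MTHFD2 spread over both sides.

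The SupB15-MR arrays differed from each other more over the members than over the array as a whole. The median absolute difference between them was 0.19 over the members' 77 probe sets, kept or not, against 0.05 over all 46034 probe sets kept. Identical values, which pull such a median down, made up 19 of the 77 and 18289 of the 46034. Replicate 1 lay above replicate 2 in 48 of the 57 member probe sets that were kept and not identical (84.2%), against 48.3% of the 27745 such probe sets on the array. For a member that was lower than SupB15, replicate 1 was thus usually the nearer to SupB15, as for TRIB3, EIF2AK3, MTHFD2, PSAT1 and XPOT, and for ASNS it was the farther. Among the members given by value, PPP1R15A, PYCR1 and ALDH1L2 had replicate 2 above replicate 1 on the probe set that stands for the gene. With 1 array each, a difference between these SupB15-MR cultures has no test.

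**Figure D3:**
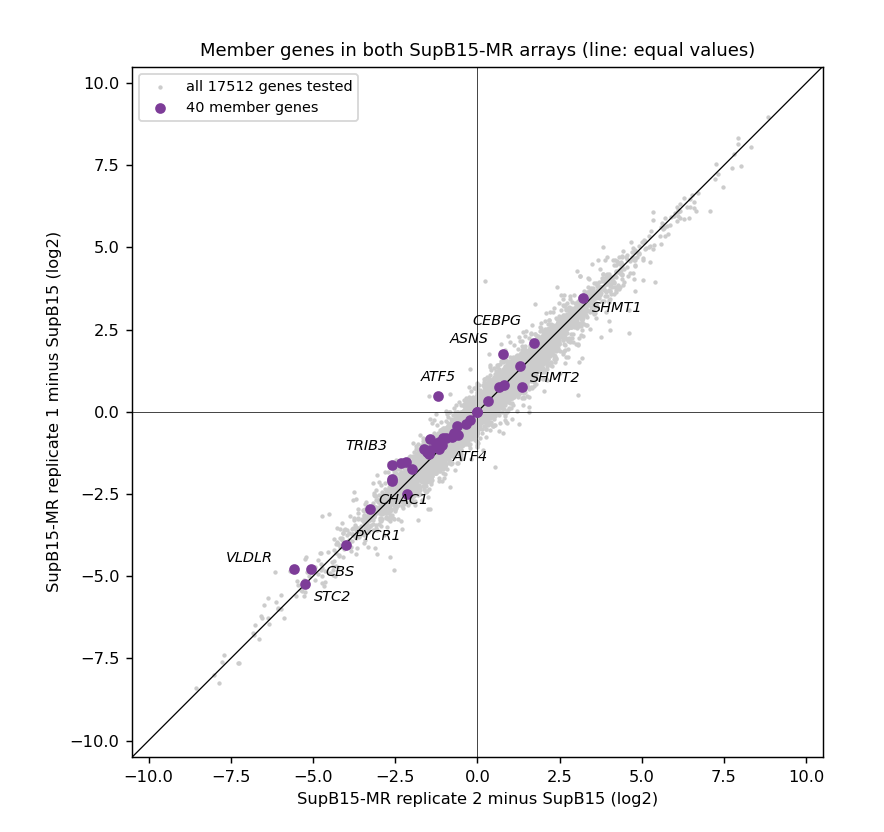
Log2 difference from SupB15 in SupB15-MR replicate 1 (vertical axis) and replicate 2 (horizontal axis) for the 40 members, over all 17512 genes tested in grey. Members lie mostly left of 0 and on or above the line of equal values, with ATF5, ASNS and TRIB3 farthest above it.

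The rest of the pathway was read from lists of neighbouring genes. Of 16 further ATF4 targets and amino acid transporters, 4 were called lower and none higher, against 9.05% and 11.8% of all genes. In both arrays 7 were at least 2-fold lower and none higher, against 13.9% and 16.2% of all genes, and the median difference was -0.56. SLC3A2, the heavy chain of amino acid exchangers, had 6.66 and 6.56 in SupB15-MR and 9.79 in SupB15, and fell by 3.18 on the log2 scale (limma adjusted p = 0.0148). Its partner SLC7A5, which carries leucine and was named after its values were seen, had 9.22 and 8.64 in SupB15-MR and 12.28 in SupB15 (adjusted p = 0.0797). EIF4EBP1, an inhibitor of translation initiation, fell 8.02-fold (limma adjusted p = 0.0301), and JDP2, a leucine zipper factor, fell 2.67-fold. JDP2 had 5.45 in both SupB15-MR arrays, so its call rests on the prior alone. The second JDP2 probe set had a log2 difference of 0.04.

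The other synthetases depended on the probe set. On the probe set that stands for the gene, none of 8 other cytosolic synthetases and scaffold proteins was called or 2-fold apart in each array, with differences between -0.92 and 0.66 and a median of -0.21. Over all their 18 probe sets, however, 5 were 2-fold or more lower and 2 higher in each array, against 6 lower and 2 higher of the 19 probe sets of the members' synthetases. Over all probe sets with 1 gene, 12.7% were lower and 15.7% higher by that measure. Of 15 mitochondrial synthetases, 2 were called higher, near the 11.8% of all genes, and none lower, against 9.05%. In each array 3 were 2-fold or more above SupB15 and 2 as far below it, against 16.2% and 13.9% of all genes. The median was 0.30. AARS2 rose by 2.03 (limma adjusted p = 0.0252), with its second probe set at -0.74, and MARS2 by 1.43 (adjusted p = 0.0106) on the log2 scale. The difference between these lists and the members' synthetases was not tested.

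Among 12 genes for eIF2, its exchange factor eIF2B and their regulators, 2 were called in each direction and the median was 0.23. Over all genes 9.05% were called lower and 11.8% higher. EIF2S1, which encodes eIF2α itself, had 12.02 and 11.96 in SupB15-MR and 9.49 in SupB15, and rose by 2.50 on the log2 scale (limma adjusted p = 0.0115). Of its 3 probe sets only 1 was 2-fold or more higher in each array, and their median difference was 0.81. EIF2B2, a subunit of eIF2B, rose by 1.41 (adjusted p = 0.032). PPP1R15B, the constitutive partner of PPP1R15A, fell by 1.69 (adjusted p = 0.0298), and DNAJC3, a chaperone that inhibits eIF2α kinases, fell by 1.30 (adjusted p = 0.00421). The 4 DNAJC3 probe sets disagreed, with 2 lower and 1 higher by 2-fold or more in each array.

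In the folate cycle and glycine cleavage list 2 of 12 were called in each direction, against 9.05% of all genes called lower and 11.8% higher. In both arrays 5 were at least 2-fold lower and 3 at least 2-fold higher, against 13.9% and 16.2% of all genes. SFXN1, a mitochondrial serine transporter, rose by 2.13 (limma adjusted p = 0.00331), although 1 of its 3 probe sets was 2-fold or more lower in each array and their median was -0.70. GCSH, of the glycine cleavage system, rose by 1.72 (adjusted p = 0.0233), with its second probe set at -0.13. MTR, methionine synthase, fell by 1.71 (adjusted p = 0.041), and AMT, also of glycine cleavage, fell by 1.25. AMT had 4.38 in both SupB15-MR arrays, so its call rests on the prior alone. That value lies under the 40th percentile of all values (4.66), so the size of the AMT fall is uncertain. Of 11 glutamine, aspartate and proline neighbours 1 was called in each direction, against 9.05% of all genes called lower and 11.8% called higher. OAT, ornithine aminotransferase, was higher by 1.43, and BCAT2, a branched-chain aminotransferase, lower with a log2 difference of -1.35. OAT had 8.36 in both SupB15-MR arrays, so its call rests on the prior alone too. The second BCAT2 probe set differed by -0.02, and the median over the list was -0.02.

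**Figure D4:**
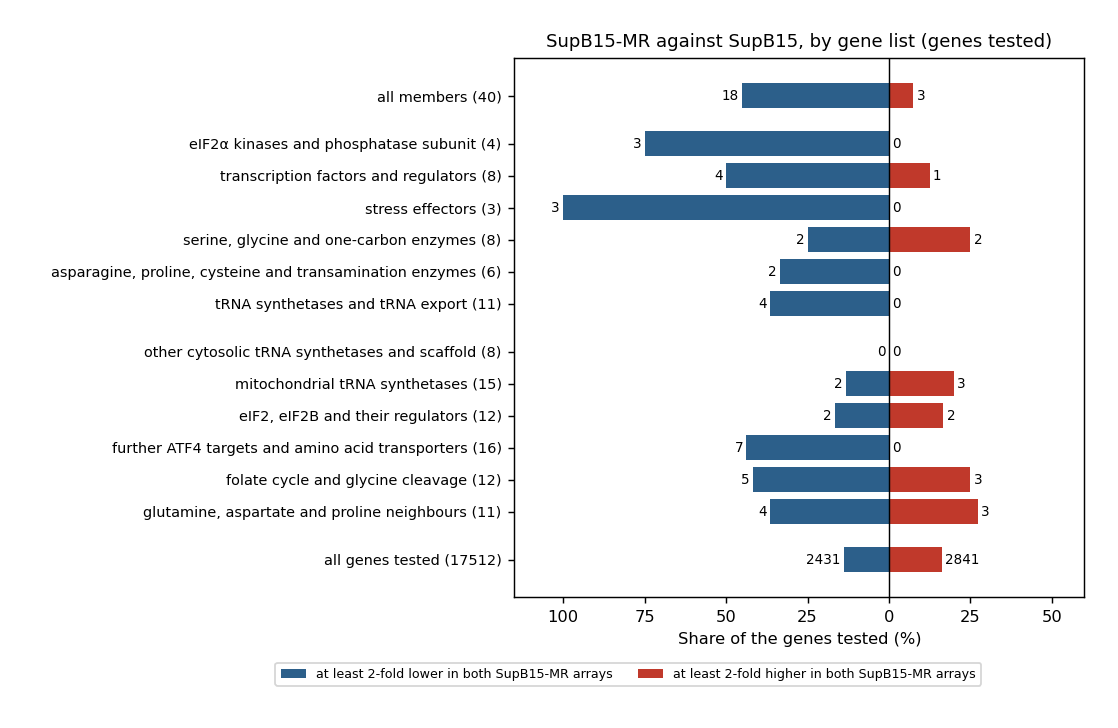
Share of the genes tested (%, horizontal axis) that lay 2-fold or more below (left) or above (right) SupB15 in each SupB15-MR array, for all members, their 6 role groups, 6 neighbouring lists and all genes, with the number of genes at the bar ends. The lower share of the members, 18 of 40, and of the further ATF4 targets, 7 of 16, lies above that of all genes (13.9%), and on the probe set that stands for the gene no other cytosolic synthetase passed 2-fold in both arrays.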

How the data were processed

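Expression was measured with Affymetrix arrays in SupB15-MR cells (2 arrays) and SupB15 cells (1 array). The authors purified RNA, amplified it with the NuGEN Ovation system and computed RMA values. What was deposited is a log2 value for every probe set (54675). The methods name the array in 2 ways, and arrays have no depth, so that their number limits the precision. Probe sets were named from the platform's table and RefSeq: 41097 had 1 gene, 1801 several and 11777 none. A probe set was dropped when none of its 3 values exceeded the 20th percentile (3.47), which left 46034. Limma 3.58.1 in R 4.3.3 was fitted with 1 residual degree of freedom, the spread of identical SupB15-MR values set to 0, and p-values adjusted after Benjamini and Hochberg. A gene was called at 2-fold and an adjusted p up to 0.05. The spread comes from the SupB15-MR arrays alone. A gene was represented by the probe set of its own with the highest mean. The fit was also run on simulated data drawn with 1 common spread for all probe sets, so that run does not test the calls on these arrays. The methods' ANOVA used arrays that were not analysed here. The members and lists were chosen with earlier results of these data known. Values per array are given for members called or at least 2-fold apart in both arrays, and for ATF4, DDIT3, ASNS, PHGDH, PSAT1 and PSPH. Of each further list, up to 3 called genes per direction are named.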

Additional observations from a re-analysis of the deposited data

How the results depend on the processing

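No paired analysis was possible because the SupB15 group holds 1 array, whose label carries no replicate number. With each array centred on its median, which lowers every SupB15-MR value against SupB15 by 0.19, 18 members were called lower and their median difference was -1.23, and over all genes 2146 were called higher and 2804 lower, against 2073 and 1584 as deposited. Centring also makes the identical SupB15-MR values differ slightly. With the prior from probe sets that differ between the SupB15-MR arrays, 5 members were called higher and 21 lower, and 2633 genes lower. The ANOVA called 0 genes higher and 0 lower and no member (0 and 0). At an unadjusted p of at most 0.05 with 2-fold it gave 4 members lower and 2 higher, and limma gave 21 members with an unadjusted p of at most 0.05. With the mean of all probe sets of a gene, 1 member was called higher, the median difference was -0.68, ATF5 was 1.61 higher and TARS1 0.13 higher. With the probe set highest in SupB15, EPRS1 had a difference of -0.70. Each SupB15-MR array set alone against SupB15, with no test, gave 4 members at least 2-fold higher without either replicate and 18 to 23 lower, 3048 to 3113 genes higher and 2608 to 2673 lower, and a median from -1.17 to -0.86. The ATF5 difference was 0.49 without replicate 2 and -1.18 without replicate 1. The count of members at least 2-fold lower in both arrays lay between 15 and 21, and of those higher between 2 and 3, under all alternatives that use both arrays.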
